A study of Mus musculus with 3 samples.

Results

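Secondary granules, also called specific granules, are the storage vesicles that a neutrophil fills after its primary granules. Described here are 9 genes for secondary granule and antimicrobial proteins, out of 28692 genes in the count table. They were chosen by name: Pglyrp1, Fcnb, Camp, Ngp, Ltf, Lcn2, Chil3, Cd177 and Lyz2. All 9 were found in the table by symbol. The cells came from the bone marrow of wild-type C57BL/6 mice, and modified GMP is their name in the labels. They were enriched with beads against CD117 (Kit), sorted and profiled by CITE-seq, which counts transcripts and antibody-bound DNA tags in the same cells. 1 male and 1 female mRNA library were made, no treatment or mutation was given to either, and neither the age nor the number of the mice is given, so the error over both libraries may be technical. The antibody tags of male and female cells form a separate, pooled sample. The 11132 cells (4336 female, 6796 male) carry 17 cluster names from the authors. Multi-Lin, Gran-1, Gran-2 and Myelo-1 to Myelo-4 are taken below in the order of their names, which is not a measured time. The other clusters are HSCP-1, HSCP-2, Meg, Eryth, MDP, cMoP, Mono, DC, MP and IG2, and no source used here spells these names out. The authors built the clusters from the same RNA, so a difference between clusters is a description of them and no independent check.

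Libraries held 91448433 UMIs (unique molecular identifiers, 1 per captured transcript molecule) in female and 124967351 in male cells, with median depths of 21202 and 18687 UMIs per cell. The median depth of a cluster was highest in MP (27908 and 23120.0 in the female and the male library) and lowest in Myelo-4 (5844 and 5057), and Myelo-4 held only 31 and 28 cells. 45 barcodes occurred in both libraries, which touched 90 cells, 55 of them in Gran-1 to Myelo-4. Leaving these cells out changed no call and moved no count by more than 1.5 times. Marker lists were highest in the cluster of their name for Eryth (8 genes, summed 2911 and 2744 CPM in female and male cells, where CPM is a UMI count scaled to the total of its library and cluster), Meg (7 genes, 6199 and 4256) and dendritic genes (5 genes, 56288 and 44408 in DC). The 7 stem and multipotent genes were highest in HSCP-1 (1924 and 1545) and HSCP-2 (1660.4 and 1729), and the 4 primary granule genes in Gran-2 (46010.2 and 48359). The 7 monocytic genes were highest in DC (2780.2 and 3453), ahead of cMoP (2633 and 2301). The 6 eosinophil and basophil genes were highest in Multi-Lin (2248 and 3013), the 5 lymphoid genes in Gran-2 (1985 and 2202) and the 6 macrophage genes summed to at most 128 CPM in any cluster.

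Neutrophils make their granules in waves, as background: primary granules with myeloperoxidase and elastase come first in promyelocytes, specific granules with lactoferrin and cathelicidin follow in myelocytes and metamyelocytes, and gelatinase granules come last. What a granule holds is set largely by which genes are transcribed while it forms, and the factor C/EBP-epsilon is required for the specific granule genes. PGLYRP1 binds bacterial peptidoglycan and FCNB, ficolin B, is a lectin that binds sugars on microbes and can start the lectin pathway of complement. CAMP is the cathelicidin precursor and NGP, neutrophilic granule protein, is a related protein of the cystatin and cathelicidin fold. LTF, lactoferrin, binds iron, and LCN2, lipocalin-2, binds the siderophores with which bacteria take up iron. CHIL3, also called Ym1, is a chitinase-like protein without chitinase activity. CD177 is a glycoprotein of the granule membrane and the neutrophil surface, and LYZ2 is the lysozyme of myeloid cells, which splits bacterial cell walls and is made by monocytes and macrophages as well.

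The 9 genes did not come on together. A gene was counted as above background in the first cluster, from Gran-1 to Myelo-4, whose CPM was more than 3 times the highest of the 4 clusters HSCP-1, HSCP-2, Meg and Eryth in both libraries. Pglyrp1 met this in Gran-1, Fcnb in Gran-2, and the other 7 genes in Myelo-1. By this rule the 2 genes for pattern recognition proteins came ahead of the iron-binding proteins, the cathelicidin-type proteins and lysozyme. The rule is a multiple of each gene's own background, however. That background reached 881 and 1156 CPM for Camp in the female and the male library, against 29.3 and 26.5 for Fcnb. An equal gain in CPM can thus be called later for a gene with a high background. From Gran-1 to Gran-2, Camp went from 1019 and 654 to 1502 and 1529.9 CPM, and Fcnb from 57.6 and 82.9 to 527 and 707. At more than 5 times, Pglyrp1 came in Gran-2 and the other genes kept their clusters. At more than 2 times, Chil3 moved up to Gran-2. In the male library alone, Fcnb met the rule in Gran-1. In the plot of levels by cluster, Pglyrp1 and Fcnb climb over several clusters while the other genes jump at Myelo-1. In bulk sums such as these, fewer cells with a transcript and less of it per cell cannot be told apart, and values per cell are given further on.

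**Figure D1:**
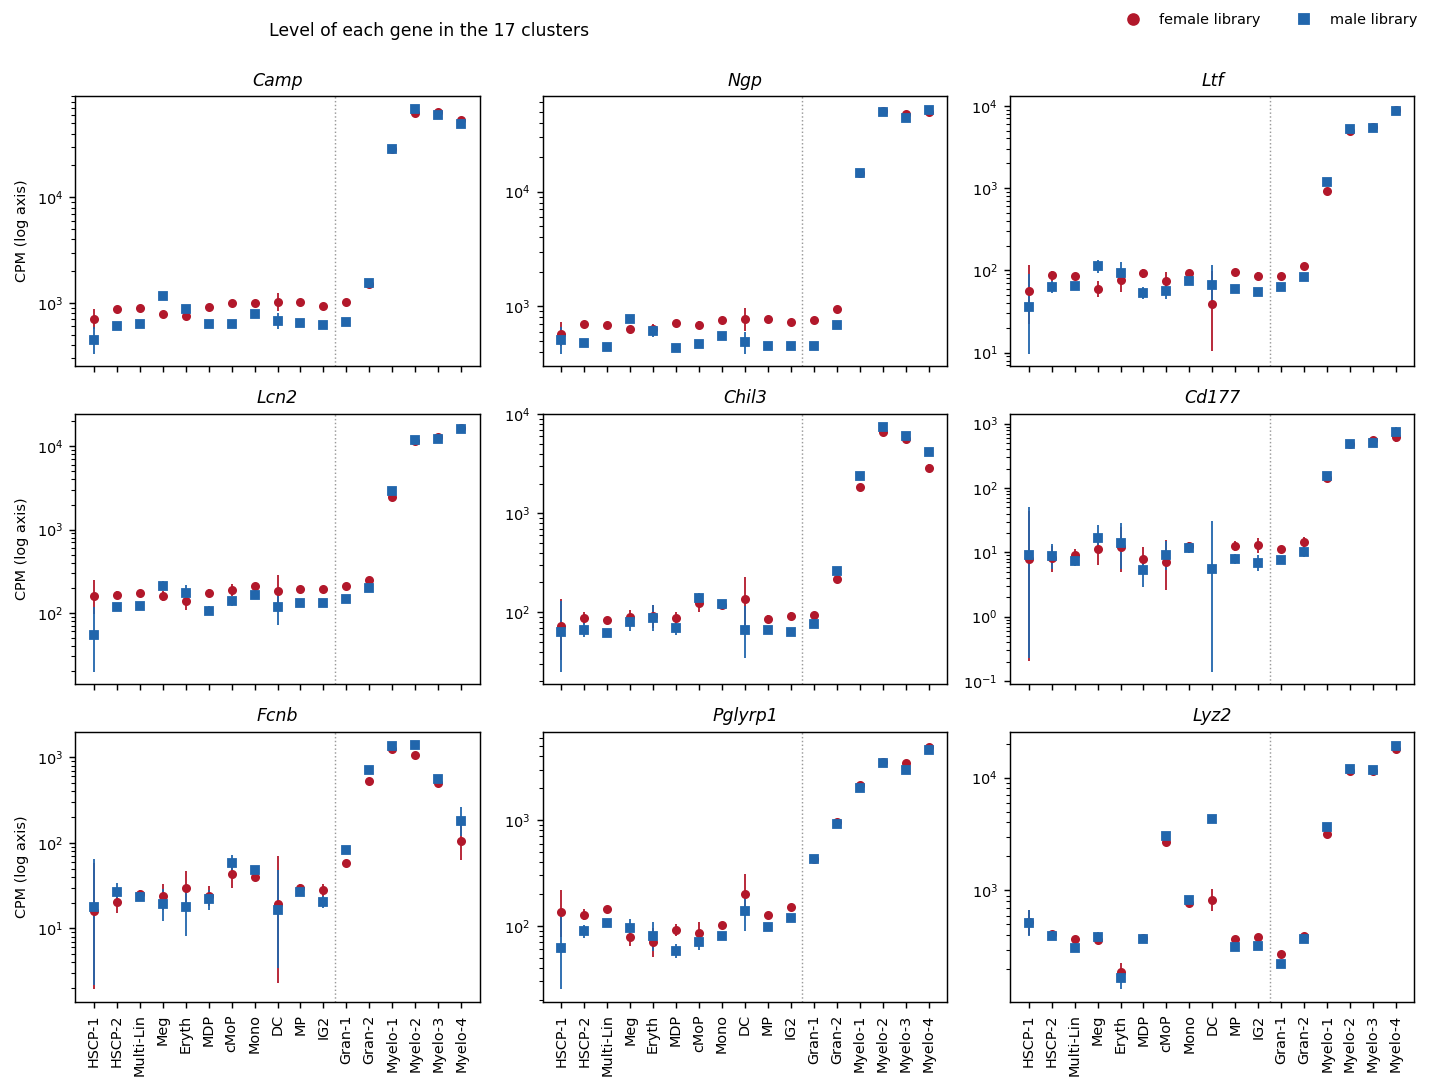
CPM of each gene (log axis) in the 17 clusters, with the female library as circles and the male library as squares and exact Poisson 95% intervals, which cover counting error only; the dotted line parts Gran-1 to Myelo-4 from the rest, and a value of 0 (Cd177, DC, female) is not drawn. Camp lies near 1019 and 654 CPM in Gran-1 in the female and the male library, within the range of the other clusters, and reaches 28431 and 28878 CPM in Myelo-1.

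Pglyrp1 was the earliest. Its level was 145 and 107 CPM in Multi-Lin in the female and the male library, 432 and 426 in Gran-1, 950.2 and 917 in Gran-2, 2143 and 2028 in Myelo-1, 3501 and 3453 in Myelo-2, 3468 and 2987 in Myelo-3 and 4857 and 4560.4 in Myelo-4. Both libraries kept the same order up to Myelo-2, and Gran-1 did not overlap Multi-Lin. The mean was 429 ± 3.93 CPM in Gran-1 and 126 ± 26.9 CPM in Multi-Lin (SD, n = 2 libraries each). Against the highest background cluster, Gran-1 was 3.18 and 4.45 times higher. By edgeR's quasi-likelihood test Pglyrp1 rose in Gran-1 relative to Multi-Lin (log2 fold change with SE 2.02 ± 0.10, adjusted p = 9.3e-17) and again in Gran-2 relative to Gran-1 (1.21 ± 0.09, adjusted p = 3.5e-11). The steps to Myelo-1 and Myelo-2 were of like size (1.32 and 1.20 on the log2 scale, both past the threshold).

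Fcnb was the second gene to come on and the only one of the 9 whose level in Myelo-4 was under 20% of its highest. It had 25 and 23.0 CPM in Multi-Lin, 57.6 and 82.9 in Gran-1, 527 and 707 in Gran-2, 1252 and 1364 in Myelo-1, 1058 and 1381 in Myelo-2, 503 and 562 in Myelo-3 and 104 and 179.6 in Myelo-4. Gran-2 stood 18.0 and 26.7 times over the highest background cluster, and the fit gave its largest step there (3.22 ± 0.12, adjusted p = 5.8e-19, Gran-2 against Gran-1). It was lower in Myelo-3 than in Myelo-2 (-1.20 ± 0.11, adjusted p = 2.1e-08) and lower again in Myelo-4 than in Myelo-3 (-2.03 ± 0.23, adjusted p = 2.2e-07). In Myelo-4 it stood at 8.34% and 13% of its highest cluster. The step of Fcnb from Myelo-1 to Myelo-2 (0.35 ± 0.11, adjusted p = 0.00896) turned to -0.11 with no composition scaling, so its direction there rests on the scaling.

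Camp and Ngp were still near background in Gran-2 and made the largest steps of the 9 genes at Myelo-1. Camp had 897 and 631 CPM in Multi-Lin, 1019 and 654 in Gran-1, 1502 and 1529.9 in Gran-2, 28431 and 28878 in Myelo-1, 62398 and 68861 in Myelo-2, 64746 and 60491 in Myelo-3 and 54184 and 49542 in Myelo-4. Ngp had 753 and 454 CPM in Gran-1, 954 and 683 in Gran-2, 14433 and 14674 in Myelo-1, 50748 and 49517 in Myelo-2 and 49823 and 51844 in Myelo-4. For both genes the 2 libraries lay close from Myelo-1 on, while in Gran-1 the female value was the higher one. The log2 fold change in Myelo-1 against Gran-2 was 4.41 ± 0.13, adjusted p = 2.1e-21 for Camp and 4.35 ± 0.13, adjusted p = 5.4e-21 for Ngp (edgeR). The difference one cluster earlier was much smaller, 0.97 for Camp and 0.54 for Ngp on the log2 scale in Gran-2 against Gran-1. Camp was unevenly spread over Gran-2 cells: the 1% of Gran-2 cells with most Camp held 13.1% and 17.8% of its UMIs there. The median cell rose as well, but less than the summed level, with 1123 and 725 CPM in Gran-2, against 1004 and 628 in Gran-1. For Fcnb the top 1% of Gran-2 cells held 4.74% and 3.91%.

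Ltf and Lcn2, the iron-related pair, came on in Myelo-1 as well but had covered less of their way there. Ltf had 85.9 and 63.1 CPM in Gran-1, 114 and 83.1 in Gran-2, 918 and 1196 in Myelo-1, 4944 and 5185 in Myelo-2, 5512 and 5366 in Myelo-3 and 8795 and 8704 in Myelo-4. Lcn2 had 212 and 145 CPM in Gran-1, 247 and 201 in Gran-2, 2470.1 and 2910.0 in Myelo-1, 11706 and 11959 in Myelo-2, 12875 and 12127 in Myelo-3 and 16728 and 16067 in Myelo-4. In Myelo-1, Ltf stood at 10.4% and 13.7% of its highest cluster and Lcn2 at 14.8% and 18.1%, while Camp stood at 43.9% and 41.9%, Ngp at 28.4% and 28.3% and Pglyrp1 at 44.1% and 44.5%. Ltf made the largest step of the 9 genes from Myelo-1 to Myelo-2 (2.71 ± 0.12, adjusted p = 1.7e-16 in Myelo-2 against Myelo-1), followed by Lcn2 (2.59). Ltf was also higher in Myelo-4 than in Myelo-3 (0.60 ± 0.12, adjusted p = 0.00110), whereas the difference of Lcn2 there missed the threshold (log2 0.30, adjusted p = 0.125).

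**Figure D2:**
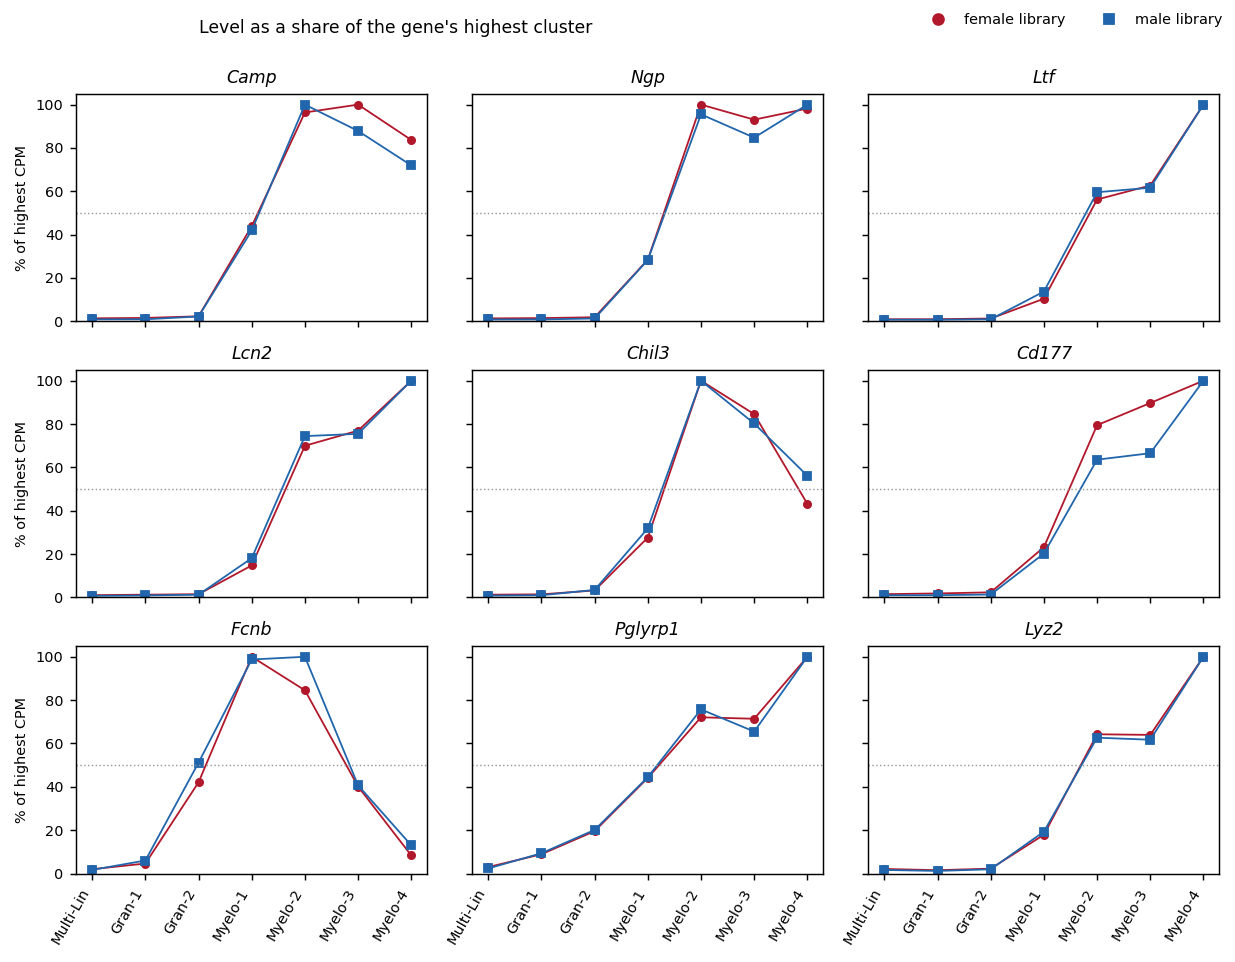
Level of each gene as a percentage of its own highest cluster among Gran-1 to Myelo-4, for Multi-Lin and these 6 clusters in the order of their names, with 1 line per library and a dotted line at 50%. Fcnb is past 50% in both libraries by Myelo-1 (in Gran-2 it is at 42.1% and 51.2% in the female and the male library) and drops by Myelo-4, the other 8 genes are past it in both by Myelo-2, and Chil3 is lower in Myelo-4 than in Myelo-2.

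Chil3 began slightly ahead of the other late genes and declined at the end, and Cd177 had its highest level in Myelo-4. Chil3 had 94.2 and 75.3 CPM in Gran-1, 215 and 258 in Gran-2, 1844 and 2378 in Myelo-1, 6675 and 7460.4 in Myelo-2, 5645 and 5987 in Myelo-3 and 2883 and 4188 in Myelo-4. Its rise in Gran-2 against Gran-1 (1.57 ± 0.13, adjusted p = 1.6e-10) was the second largest of the 9 genes after Fcnb, and in Myelo-4 it was lower than in Myelo-3 (-0.82 ± 0.14, adjusted p = 8.9e-05). Cd177 had 11.3 and 7.70 CPM in Gran-1, 14.5 and 10.1 in Gran-2, 143 and 152 in Myelo-1, 489.8 and 477 in Myelo-2, 553 and 499 in Myelo-3 and 616 and 750.4 in Myelo-4. The difference of Cd177 between Myelo-4 and Myelo-3 missed the threshold (log2 0.27, adjusted p = 0.348), so the order of these clusters is not settled by the 2 libraries.

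Lyz2 was the one gene with a high level in a second branch. Along the granulocyte clusters it had 373 and 309.9 CPM in Multi-Lin, 273 and 225 in Gran-1, 398 and 369 in Gran-2, 3184 and 3657 in Myelo-1, 11439 and 11866 in Myelo-2, 11387 and 11687 in Myelo-3 and 17804 and 18934 in Myelo-4. Gran-1 lay below Multi-Lin (-0.22 ± 0.09, adjusted p = 0.0318), the only one of the 9 genes to be lower there. In the monocytic clusters Lyz2 had 381 and 373 CPM in MDP, 2709 and 3012 in cMoP and 775 and 817 in Mono. DC held 827 and 4290.0 CPM in only 11 and 22 cells. The cMoP level lay close to that of Myelo-1. Its log2 fold change was 3.19 ± 0.06, adjusted p = 5.2e-44 in cMoP against Multi-Lin and 1.40 ± 0.05, adjusted p = 5.7e-30 in Mono against Multi-Lin. Reads from the neighbouring gene Lyz1 could be confused with it, but Lyz1 was listed at 16.6 CPM or less in every cluster and library. Chil4, the near copy of Chil3, reached at most 0.57 CPM and Fcna, a relative of Fcnb, 2.89, and the treatment of reads shared between copies is not stated in what was used here.

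The steps were tested over all genes, with UMI counts summed per library and cluster, the library as a covariate and 2 sums per cluster. In Gran-1 against Multi-Lin, 7 of the 9 genes were called higher and 1 lower (Lyz2), beside 54.1% of all 10820 genes called in either direction (28.0% higher and 26.1% lower). Apart from Pglyrp1 and Fcnb (log2 1.78), these differences were small: 0.52 for Lcn2, 0.46 for Chil3, 0.41 for Cd177, 0.36 for Camp and 0.32 for Ngp, with Ltf not called (0.22). With no composition scaling only 3 of the 9 genes were called, with RLE scaling 5 and with DESeq2 4; Pglyrp1 and Fcnb kept their calls there under every alternative fit that gives a test. In Gran-2 against Gran-1 all 9 genes were called higher, beside 27.1% of genes called and 14.6% called higher, and DESeq2 called 5. In Myelo-1 against Gran-2 all 9 were higher, with 27.1% of genes called and 15.0% higher. The median log2 fold change of the 9 genes was 3.62 there, against 0.01 over all genes tested. In Myelo-2 against Myelo-1 all 9 were higher again, with 38.1% called and 19.5% higher (18.6% lower), and a median of 2.21 against -0.03 over all genes.

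After Myelo-2 the 9 genes parted. In Myelo-3 against Myelo-2 none was higher and only Fcnb was lower, beside 8.04% of genes called (3.58% higher and 4.46% lower). Without the filter on low counts 3 genes were called there (Ngp and Chil3 were added, both lower). In Myelo-4 against Myelo-3, Ltf, Lyz2 (0.58 on the log2 scale) and Pglyrp1 (0.45) were higher and Chil3 and Fcnb lower, beside 6.34% of genes called (1.77% higher and 4.57% lower). These are shares of UMIs, and the median depth was 9531 and 8770 UMIs per cell in female and male Myelo-3, against 5844 and 5057 in Myelo-4. A higher share in Myelo-4 can thus go with equal or fewer UMIs per cell, which are not compared here. The median of all genes was -0.59 in that comparison, and it lay 0.20 higher with RLE scaling and 0.48 higher with DESeq2; relative to that median the 3 genes called higher were further up, Fcnb was still far below, and Chil3 (-0.82) was only a little below. Among all genes called, the share called higher moved with the scaling: in Gran-1 against Multi-Lin it was 51.7%, and 23.5% with no composition scaling. In Gran-2 against Gran-1 it was 53.8%, and 35.6% with no scaling, 37.2% with RLE and 43.5% with DESeq2. In Myelo-1 against Gran-2 it was 55.4%, and 28.3% with no scaling and 44.1% with RLE. In Myelo-2 against Myelo-1 it was 51.3%, and 12.4% with no scaling. In Myelo-4 against Myelo-3 it was 27.8%, and 48.6% with RLE and 57.3% with DESeq2. With no scaling the median of all genes shifted by -0.23 in the first of these comparisons, by -0.16 in Myelo-1 against Gran-2 and by -0.46 in Myelo-2 against Myelo-1.

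Reference genes place these steps. Mpo, the myeloperoxidase of primary granules, had 4380.0 and 4858 CPM in Multi-Lin, 8916 and 9562 in Gran-1, 9990.0 and 10618 in Gran-2, 5098 and 5045 in Myelo-1 and 1123 and 1040.4 in Myelo-2. Elane, neutrophil elastase, had 20157 and 22362 CPM in Gran-2, 11941 and 12354 in Myelo-1 and 1391 and 1525 in Myelo-2, so both primary granule genes were highest in Gran-2, the cluster before the largest step of Camp. S100a8, a calcium-binding protein of the neutrophil cytosol, had 4243 and 4105 CPM in Gran-1, 21189.5 and 22225 in Gran-2 and 82218 and 82405 in Myelo-1, and it rose in Gran-2 against Gran-1 by 2.47 on the log2 scale. Cebpe, the gene of C/EBP-epsilon, had 128 and 137 CPM in Multi-Lin, 255 and 261 in Gran-1, 409.9 and 444 in Gran-2, 664 and 662 in Myelo-1 and 902 and 938 in Myelo-2, and it rose at each of these steps. The mean of Cebpe was lower after that, 783 ± 9.58 CPM in Myelo-3 and 564 ± 73.5 CPM in Myelo-4 (SD, n = 2 libraries each). Gfi1, a repressor needed for neutrophil formation, was highest in Gran-2 (111 and 107 CPM) and fell in Myelo-1 against Gran-2 (-0.62 on the log2 scale, past the threshold).

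A list of 16 other genes for specific and gelatinase granules was counted in the same way. 15 of them passed the filter on low counts. 8 were higher in Gran-1 against Multi-Lin, 10 in Gran-2 against Gran-1, 11 in Myelo-1 against Gran-2 and 13 in Myelo-2 against Myelo-1, and none was lower at these steps, where 28.0%, 14.6%, 15.0% and 19.5% of all genes tested were called higher. 4 were higher and 2 lower in Myelo-3 against Myelo-2, beside 3.58% of all genes higher and 4.46% lower. In Myelo-4 against Myelo-3, 7 were higher and 1 lower, beside 1.77% of all genes higher and 4.57% lower. The median log2 fold change of all genes was -0.59 in that last comparison. Cyba, a subunit of the phagocyte oxidase, had 457 and 530.0 CPM in Gran-1, 875 and 972 in Gran-2, 1389.7 and 1385 in Myelo-1 and 2058 and 2187 in Myelo-4. Hp, haptoglobin, had 379 and 403 CPM in Gran-1 and 908 and 935 in Gran-2. Anxa1, annexin A1, had 631 and 694 CPM in Myelo-1 and 3468 and 3194 in Myelo-4. Slpi, a protease inhibitor, had 228 and 268 CPM in Gran-2 and 1049.7 and 1097 in Myelo-4, and was also high in cMoP (858 and 853). The median log2 fold change of the list in Myelo-1 against Gran-2 was 1.46, beside 3.62 for the 9 genes and 0.01 for all genes.

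By the share of cells above a background threshold set for each gene, Pglyrp1 and Fcnb were highest in Gran-1 and Gran-2. Every cell was thinned to 4000 UMIs, and a cell counted as on for a gene when its thinned count was above the smallest threshold that at most 1% of HSCP-1, HSCP-2, Meg and Eryth cells of the same library exceeded. In Gran-1, Pglyrp1 was on in 13.5% and 26.6% of female and male cells and Fcnb in 3.0% and 5.97%, while each of the other 7 genes was on in at most 1.68% of cells. In Gran-2, Pglyrp1 was on in 54.1% and 65.6%, Fcnb in 49.6% and 64.2%, Chil3 in 7.04% and 10.5% and Camp in 7.04% and 5.52%. These shares of the late genes moved with the setting: without thinning the mean over both libraries was 28.6% for Camp, 28.1% for Ngp and 28.2% for Chil3, beside 91.1% for Fcnb and 94.7% for Pglyrp1, and Camp was at 15.0% with a threshold at 5% of background cells. Ngp was on there in 4.79% and 1.00%, Lcn2 in 2.54% and 2.17% and Ltf in 1.69% and 1.00%. In Myelo-1 the shares were 95.9% and 88.8% for Camp, 87.6% and 72.1% for Ngp, 76.3% and 83.0% for Chil3, 66.0% and 65.8% for Lcn2, 64.9% and 61.9% for Lyz2, 40.7% and 47.1% for Ltf and 10.8% and 13.2% for Cd177. In Myelo-2 all genes but Cd177 (54.7% and 54.4%) and Fcnb (78.5% and 85.0%) were on in 98.2% of cells or more. Cd177 also had the lowest level of the 9 genes in Myelo-2. Thresholds differed between the libraries for Camp (9 UMIs for female and 23 for male cells) and Ngp (7 and 16). They also did for Pglyrp1 (3 and 2) and Lyz2 (5 and 6). The female and male shares of these 4 genes are thus not on equal terms, and Pglyrp1 had nearly the same CPM in both libraries in Gran-1. The threshold was only 1 UMI for Fcnb and Cd177 in both libraries, so shares of different genes are not on equal terms either.

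**Figure D3:**
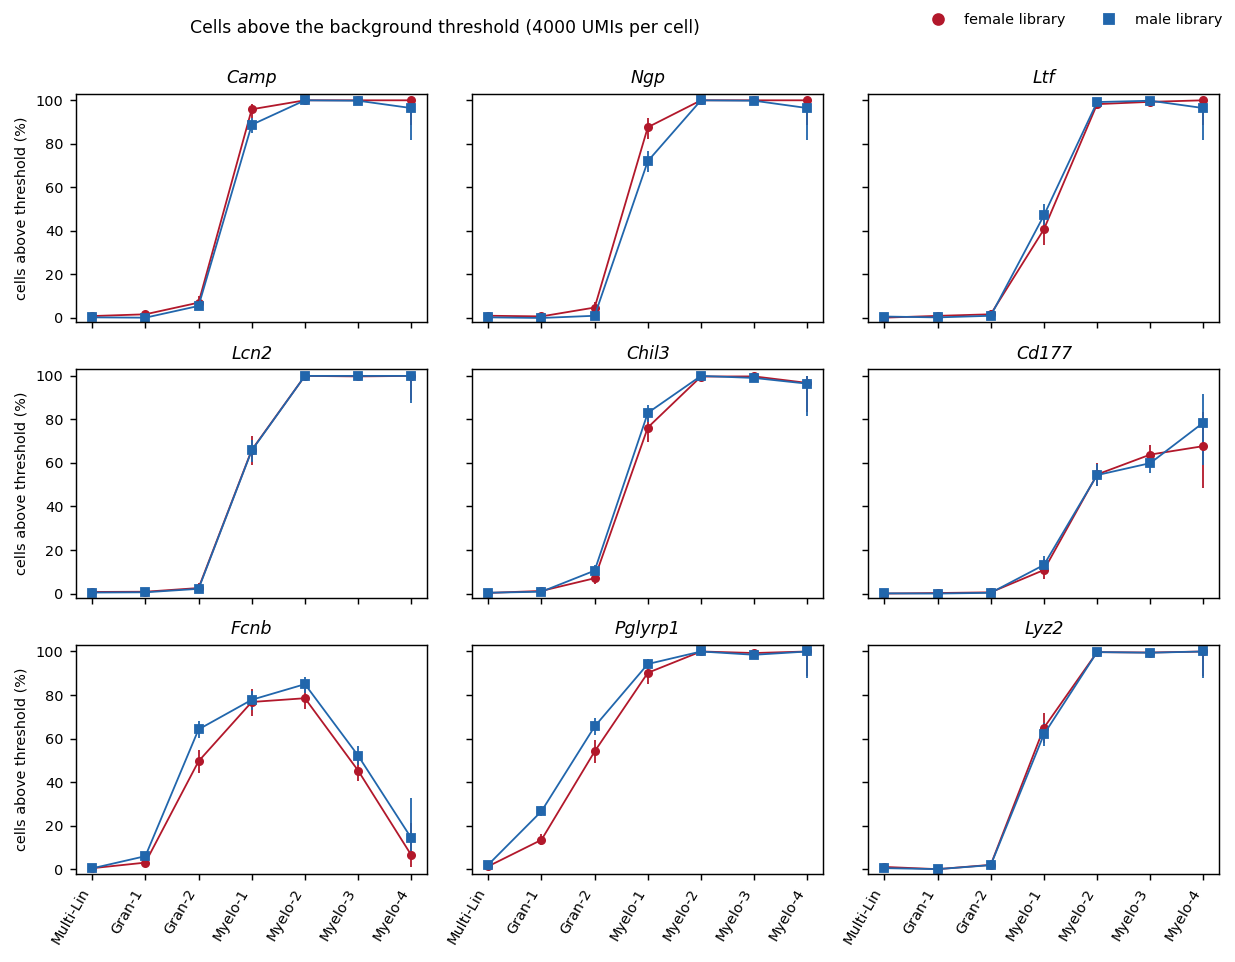
Percentage of cells above the background threshold for each gene after thinning to 4000 UMIs, for Multi-Lin and Gran-1 to Myelo-4 in the order of their names, with exact binomial 95% intervals and 1 line per library. Pglyrp1 and Fcnb are above threshold in 54.1% and 65.6% and 49.6% and 64.2% of female and male Gran-2 cells, where Camp is at 7.04% and 5.52%; Fcnb declines to 6.45% and 14.3% in Myelo-4.

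Counts of pairs of genes within single cells depend on these overall shares, so no order within cells is read from them. In Gran-2, Fcnb and Camp were both on in 16 female and 25 male cells, Fcnb without Camp in 160 and 359, and Camp without Fcnb in 9 and 8. Of the Camp cells, 16 of 25 and 25 of 33 thus had Fcnb on as well. Chil3 was on with Fcnb in 16 and 51 cells and without it in 9 and 12. Ngp, Lcn2 and Ltf were more often on without Fcnb: Ngp in 12 and 4 cells (5 and 2 with Fcnb), Lcn2 in 7 and 7 (2 and 6) and Ltf in 5 and 6 (1 and 0). Pglyrp1 alone was on in 84 and 128 Gran-2 cells, Fcnb alone in 68 and 120, and both in 108 and 264. In Gran-1, Pglyrp1 alone was on in 108 and 371 cells, Fcnb alone in 21 and 53, and both in 4 and 39. Of the cells with exactly 1 of the 9 genes on, that gene was Pglyrp1 in 104 of 163 female and 367 of 433 male Gran-1 cells. In Myelo-1, Camp was on without Ltf in 107 and 153 cells, Ltf without Camp in 0 and 1, and both in 79 and 171.

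Antibody counts gave a measure that played no part in choosing the genes, although the clusters binned here come from RNA. Gran-1 cells were put in 5 equal bins of their CD11b (integrin alpha M, a surface protein of maturing myeloid cells) antibody count within each library, a split chosen after the data had been seen. Fcnb had 87.3 and 154 CPM in the highest bin in the female and the male library, against 35.4 and 37.3 in the lowest. Pglyrp1 had 512 and 540.3 CPM in the highest bin, against 305 and 302 in the lowest. Both increased at each bin in both libraries. Camp had 1040.2 and 737 CPM in the highest bin, against 1012 and 624 in the lowest, and the other 6 genes differed by at most 1.37 times. S100a8 had 5389 and 7043 CPM in the highest bin, against 3277 and 2253 in the lowest. The median depth was 31233.5 and 24001.5 UMIs per cell in the highest bin, against 24870.0 and 20377 in the lowest, and its part in these values was not tested.

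**Figure D4:**
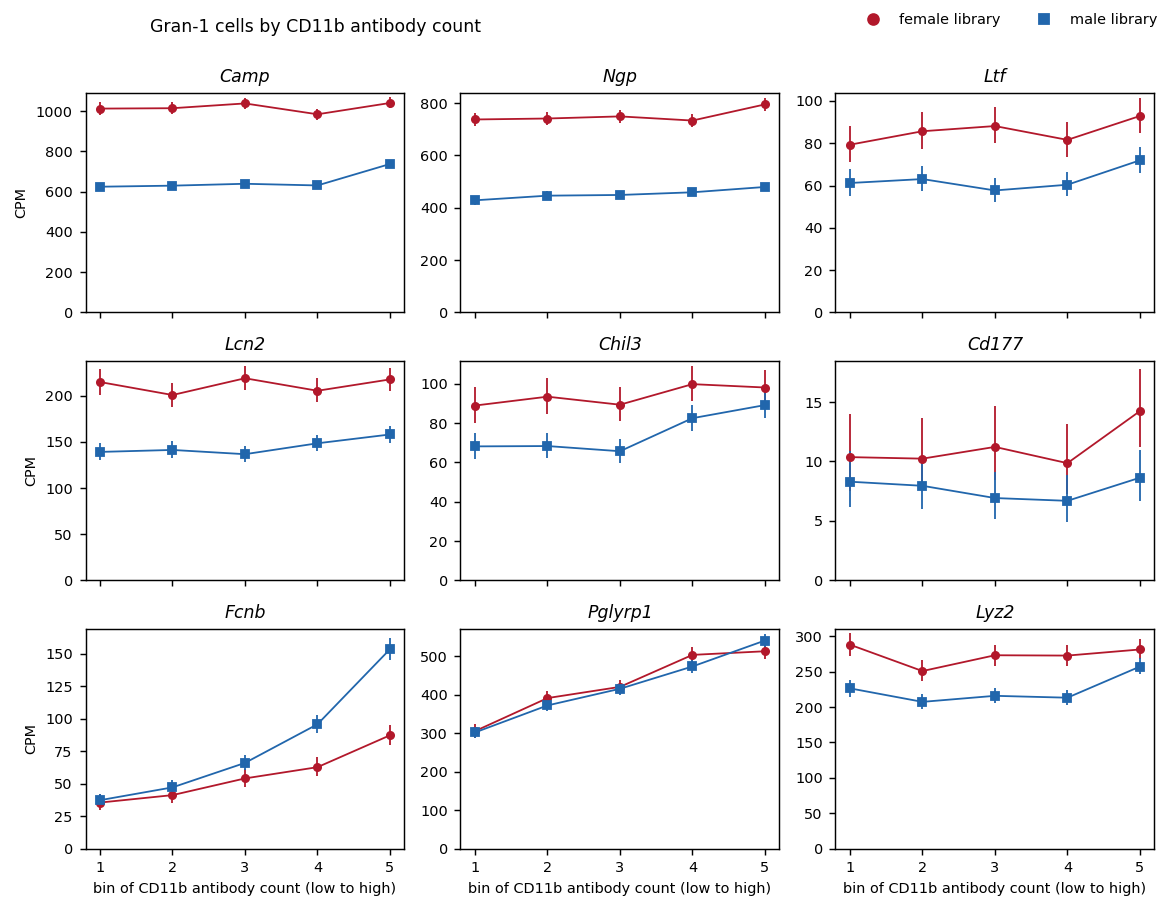
CPM of each gene in Gran-1 cells of 5 equal bins of the CD11b antibody count, low to high, with exact Poisson 95% intervals (counting error only) and 1 line per library; axes start at 0. Fcnb climbs to 87.3 and 154 CPM and Pglyrp1 to 512 and 540.3 in the female and the male library, while Camp stays between 984 and 1040.2 CPM in the female library.

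Ly-6G, a neutrophil surface protein that appears late, sorted the genes of Myelo-1. These bins within Myelo-1 were also chosen after the data had been seen. In Myelo-1 cells of the highest of 5 Ly-6G bins, Ltf had 1716 and 2039.9 CPM, against 148 and 135 in the lowest. Cd177 had 217 and 228 CPM, against 60.2 and 45.1 in the lowest bin, and Lcn2 had 3382 and 3753, against 917 and 936. Camp differed far less, with 25352 and 29058 CPM in the highest and 23853 and 20712 in the lowest bin. Fcnb went the other way, with 521 and 719 CPM in the highest and 1744 and 1997 in the lowest bin. Fcnb also was lower in the highest Ly-6G bin of Myelo-2 (667 and 925 CPM, against 1441 and 1944) and of Myelo-3 (209 and 398 CPM, against 903 and 926), while Camp in Myelo-3 had 64824 and 59268 CPM, against 65751 and 63088 in the lowest bin. Over all Gran-1 to Myelo-4 cells, the highest Ly-6G bin held 37.5 and 38.1 times the Camp level of the lowest in the female and the male library, and 2.45 and 2.58 times the Fcnb level. Bins by the deposited log share of the antibody in place of its count lowered the Camp ratio to 6.68 and 7.47. They also turned the direction of Fcnb over all these cells, to -0.79 on the log2 scale. No test was run on bins, since the cells of 1 library are not replicates.

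In the 11 clusters outside Gran-1 to Myelo-4, Camp, Ngp, Ltf, Lcn2 and Chil3 were all found at a low level. The highest cluster was 1.34 (Ngp) to 2.45 (Ltf) times the lowest in the female library and 1.77 (Ngp) to 3.94 (Lcn2) times in the male library, where HSCP-1 with 10 cells and Meg gave most of the extremes. Lyz2 varied far more, by 14.4 and 25.8 times. Camp had 881 and 602 CPM in HSCP-2 in the female and the male library, 757 and 869.8 in Eryth, 922 and 632 in MDP, 1019 and 640.3 in MP and 941 and 623 in IG2, next to 1019 and 654 in Gran-1. Median depths before thinning were 27601.5 and 22359 UMIs in Gran-1 and 8298.5 and 7140.5 in HSCP-2. After thinning, 98.3% and 91.5% of Gran-1 cells had at least 1 Camp UMI, against 98.4% and 91.7% of HSCP-2 cells. These shares are close to all cells in both clusters, so they could not show a small difference; thinned cells had 4.04 and 2.60 Camp UMIs on average in Gran-1, against 3.61 and 2.50 in HSCP-2. Pglyrp1 was found in 74.0% and 75.9% of thinned Gran-1 cells, against 46.9% and 26.6% of HSCP-2 cells, so it was above that level in both libraries. In Gran-1 and MP, Camp UMIs per cell followed the depth of the cell. Of 5 equal depth bins of Gran-1, the deepest had 40.5 and 22.5 Camp UMIs per cell, against 18.3 and 9.21 in the shallowest, and a CPM that differed little (1009 and 698, against 1021 and 661). MP showed the same, with 1006 and 639 CPM in the deepest bin, against 1035 and 662 in the shallowest. Male HSCP-2 differed, with 7.78 UMIs per cell in the deepest bin, against 4.24 in the shallowest, and 560.1 CPM, against 836, so the shallowest cells had the highest Camp share there. The variance of thinned Camp counts, which counting alone would set equal to the mean, was 10.2 and 17.2 times the mean in female and male Gran-2 cells, against 1.10 and 1.42 in Gran-1. It was 0.896 and 2.74 times the mean in HSCP-2, so the male value lay beyond counting error. Of 290 male HSCP-2 cells, 1 had more than 23 thinned Camp UMIs, and the part of that cell in the male value was not tested.

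The 2 libraries differed in this low level. Camp was higher in the female library in 9 of the 11 clusters outside Gran-1 to Myelo-4, with a median female level over male level of 1.46, and Ngp in 10 of 11 with a median ratio of 1.47. For Camp the exceptions were Meg (787 and 1156 CPM in the female and the male library) and Eryth (757 and 869.8). In each of these, 1 male cell held 32.1% (Meg) and 33.1% (Eryth) of all Camp UMIs. Without the cell richest in Camp, the values were 776 and 801 CPM in Meg and 759.7 and 604 in Eryth, an alternative chosen after the data had been seen. In Mono, the 1% of cells with most Camp held 20.1% of male and 2.52% of female Camp UMIs. No doublet caller was run, and doublets or wrongly assigned cells were not tested as a source of these few cells.

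The ratios between the genes at this low level were compared with those in the Myelo clusters. A single source of free RNA keeps its genes in 1 ratio to each other in every cluster, so UMIs of each gene per Camp UMI were set against the same ratio in Myelo-2 to Myelo-4. Ngp in the 11 other clusters lay between 0.894 and 1.57 times that ratio over both libraries, Lcn2 between 0.640 and 1.15 and Ltf between 0.449 and 1.31, and 21 of the 22 values of each were within 1.5 times. The values outside came from HSCP-1 and DC, which hold 10 to 22 cells per library. In Myelo-1, where the genes are on, the ratios were lower, 0.653 and 0.700 times for Ngp, 0.446 and 0.537 for Lcn2 and 0.388 and 0.502 for Ltf in the female and the male library. In Myelo-4 alone they were higher than in the pooled Myelo clusters, 1.18 and 1.44 times for Ngp, 1.59 and 1.73 for Lcn2 and 1.95 and 2.13 for Ltf. Pglyrp1 lay at 1.56 to 4.08 times the Myelo ratio in every other cluster, Fcnb at 1.12 to 6.15 and Lyz2 at 1.04 to 34.5. All cells of a library together gave 1.48 and 1.63 times for Pglyrp1 and 2.01 and 2.26 times for Fcnb, but 0.938 and 0.925 for Ngp and 0.904 and 0.895 for Ltf. Set against the whole library instead, Pglyrp1 in Meg (1.79 and 1.65 times the Myelo ratio), Eryth (1.68 and 1.84), MDP (1.80 and 1.83) and Mono (1.83 and 2.00), and Fcnb in most clusters, lay close to the ratio, so how far these 2 genes stand apart depends on the ratio chosen. In Gran-1, Pglyrp1 stood at 7.64 and 13 times and Fcnb at 4.49 and 8.45 times, while Ngp (0.951 and 0.954), Lcn2 (1.07 and 1.18) and Ltf (1.01 and 1.17) kept the ratio. Lyz2 was lowest against Camp in Eryth (1.36 and 1.04 times) and stood at 2.54 and 3.55 in HSCP-2 and 15.0 and 25.6 in cMoP. Chil3 kept the ratio in HSCP-2 (1.02 and 1.06) and was above it in cMoP (1.28 and 2.08) and Gran-2 (1.47 and 1.63). Cd177, which also came on in Myelo-1, was within 1.5 times the ratio in only 8 of its 22 values. Its median was 1.52 times the Myelo ratio and its highest value 2.62. Cd177 had no UMI in the 11 female DC cells, where a count of 0 allows up to 28.9 CPM. No empty droplets were in the files used here, so the make-up of free RNA itself was not measured, and its part in these levels was not tested.

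**Figure D5:**
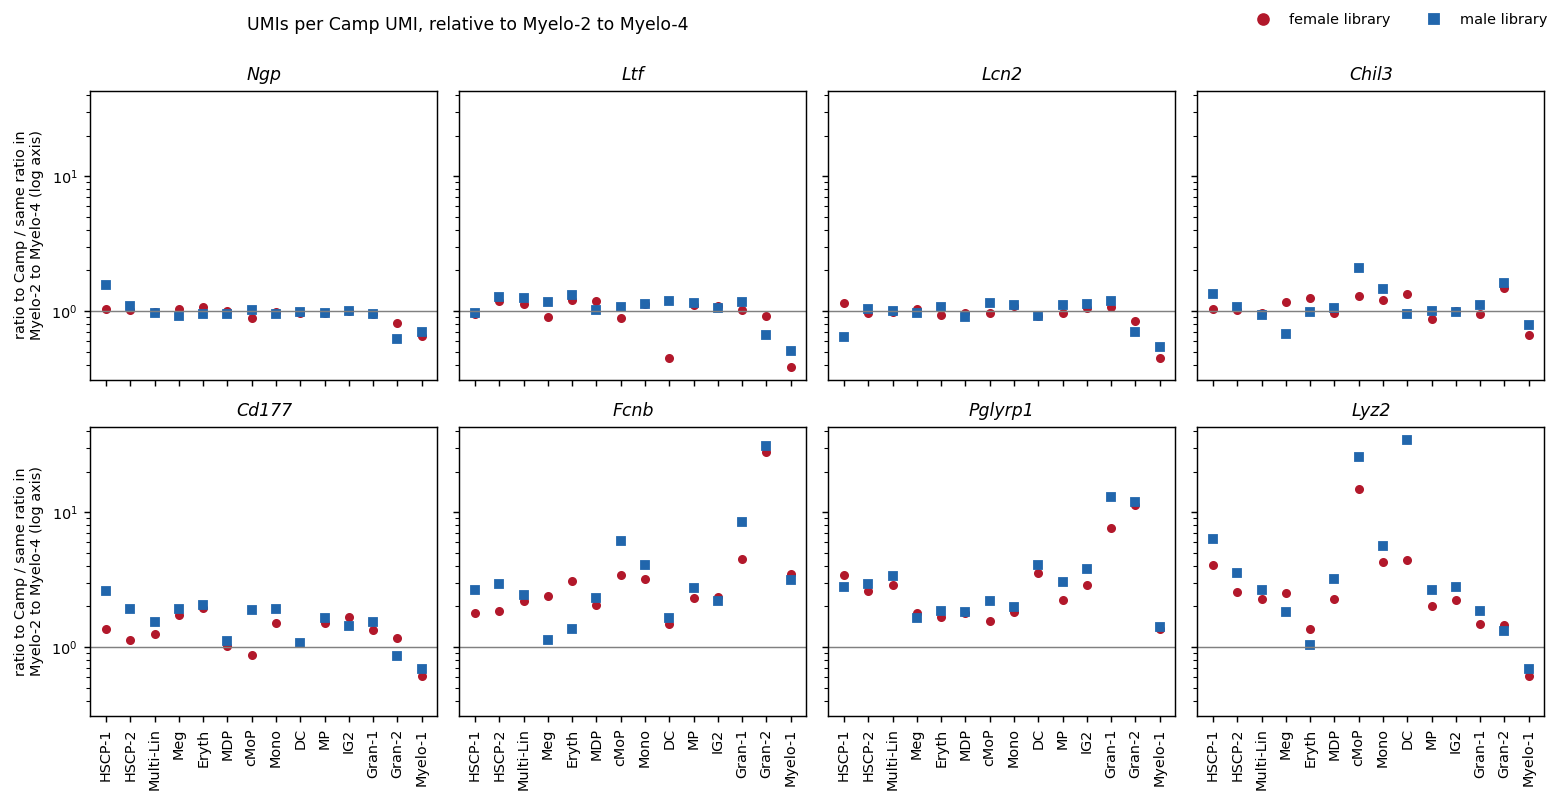
UMIs of each gene per Camp UMI, divided by the same ratio in Myelo-2 to Myelo-4 of the same library (log axis; the line marks 1), in the 11 clusters outside Gran-1 to Myelo-4 and in Gran-1, Gran-2 and Myelo-1; circles are the female and squares the male library, and Cd177 in female DC, at 0, is not drawn. Ngp, Ltf and Lcn2 lie along the line up to Gran-1, whereas Pglyrp1 lies above it everywhere and reaches 7.64 and 13 in Gran-1.

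The monocytic clusters were tested against Multi-Lin for the same genes. In MDP, Lyz2 was higher (0.23 on the log2 scale) and Pglyrp1 lower (-0.66), beside 23.1% of all genes called (11.8% higher and 11.3% lower), and with no composition scaling, no library block or DESeq2 only Pglyrp1 was called. In cMoP, 6 of the 9 genes were higher and Pglyrp1 lower, beside 33.6% of genes called (17.1% higher and 16.5% lower); with no composition scaling or no library block 4 were called. Besides Lyz2, Fcnb (1.27) and Chil3 (1.04) made the larger steps, and Camp (0.19), Ngp (0.17) and Lcn2 (0.28) small ones. In Mono, 8 genes were higher and Pglyrp1 lower (-0.29), beside 52.9% of genes called (25.3% higher and 27.7% lower), and without the library block 5 were called. The share of all called genes that were higher was 47.7% in Mono, and 26.6% with no scaling, 50.9% in cMoP, and 36.7% with no scaling, and 51.1% in MDP, and 33.8% with no scaling. Fcnb had 42.9 and 58.8 CPM in cMoP and 40.0 and 47.8 in Mono, against 25 and 23.0 in Multi-Lin, and was on in 2.56% and 5.15% of cMoP cells. Lyz2 was on in 43.6% and 50.5% of female and male cMoP cells and in 14.4% and 12% of Mono cells, against 1.02% and 0.469% of Multi-Lin cells. Summed monocytic markers were 2633 and 2301 CPM in cMoP and 1637 and 1667 in Mono, against 202 and 219 in Multi-Lin, and the summed primary granule markers were 19729 and 20979 CPM in Mono, against 10356 and 11007 in Multi-Lin; their part in these results was not tested.

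Gene positions and promoters were read from RefSeq tables of GRCm38.p6. Camp, Ngp and Ltf lie on chromosome 9 at 109847377 to 109849456, 110419808 to 110423012 and 111019292 to 111042766, all coming on in Myelo-1. Lcn2 and Fcnb lie on chromosome 2, Cd177 and Pglyrp1 on 7, Chil3 on 3 and Lyz2 on 10. In the 250 bases before each start, 3 short motifs were searched on both strands: TTGCNNAA, a C/EBP-type site, AAATCA, a GFI1-type site, and GGAAGT, an ETS-type site, and no matches in the 9 windows overlapped. Over 32851 windows of that length, 9.56% held the first, 12.4% the second and 19.7% the third. TTGCNNAA was found for Ngp, Ltf, Lcn2 and Fcnb, 4 of the 9 genes, AAATCA for Ltf and Chil3, and GGAAGT for Chil3, Cd177, Fcnb and Lyz2. Pglyrp1, the earliest gene, and Camp held none of the 3. These matches are letters in a window and say nothing of binding. The windows of the 2 earliest genes and of the 3 late genes on chromosome 9 are shown 5′ to 3′ with matches in capitals. For Fcnb and Cd177 the start in the promoter table lies inside the span given for the gene, so the end of the window overlaps that span, and positions are counted from the start in the promoter table. Pglyrp1 is chr7:18884440-18884689 on the plus strand and Fcnb chr2:28084879-28085128 on the minus strand. Camp is chr9:109849457-109849706 on the minus strand, Ngp chr9:110419558-110419807 on the plus strand and Ltf chr9:111019042-111019291 on the plus strand.
Pglyrp1: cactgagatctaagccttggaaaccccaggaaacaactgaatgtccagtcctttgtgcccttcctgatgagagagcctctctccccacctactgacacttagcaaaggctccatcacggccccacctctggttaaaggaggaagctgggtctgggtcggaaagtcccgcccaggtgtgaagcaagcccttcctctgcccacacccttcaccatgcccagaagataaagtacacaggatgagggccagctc
Fcnb: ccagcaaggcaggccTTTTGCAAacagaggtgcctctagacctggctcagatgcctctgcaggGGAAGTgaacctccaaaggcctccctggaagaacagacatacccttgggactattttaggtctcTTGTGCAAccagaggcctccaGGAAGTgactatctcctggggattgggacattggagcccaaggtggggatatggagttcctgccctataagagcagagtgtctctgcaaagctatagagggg
Camp: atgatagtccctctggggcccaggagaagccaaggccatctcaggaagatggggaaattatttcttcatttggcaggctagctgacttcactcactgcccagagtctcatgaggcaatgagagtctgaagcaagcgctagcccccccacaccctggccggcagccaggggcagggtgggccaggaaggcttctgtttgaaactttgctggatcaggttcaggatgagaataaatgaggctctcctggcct
Ngp: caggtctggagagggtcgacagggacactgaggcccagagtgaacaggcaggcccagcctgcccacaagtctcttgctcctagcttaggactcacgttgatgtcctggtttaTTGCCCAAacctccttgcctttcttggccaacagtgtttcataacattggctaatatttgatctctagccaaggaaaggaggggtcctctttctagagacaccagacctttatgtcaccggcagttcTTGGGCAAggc
Ltf: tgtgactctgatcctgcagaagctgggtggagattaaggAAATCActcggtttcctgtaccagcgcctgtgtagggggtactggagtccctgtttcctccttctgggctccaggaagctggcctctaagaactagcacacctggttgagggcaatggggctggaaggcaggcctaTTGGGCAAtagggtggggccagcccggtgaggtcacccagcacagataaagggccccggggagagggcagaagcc

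In those windows Fcnb, which came on in Gran-2, holds TTGCNNAA at 235 and 123 bases before the start in the promoter table, and Ngp, which came on in Myelo-1, holds it at 138 and 11 bases before, so the same letters occur at genes of either timing. Ltf holds 1 match at 75 bases before its start.

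The genes most like each of the 9 were sought by Pearson's r of log2(CPM + 1) over the 34 values of 17 clusters and 2 libraries, among 3546 genes with at least 50 CPM in 1 cluster of both libraries. The points share libraries, depth and the low level described above, so r is only a description. S100a9 was nearest to Camp (r = 0.988), Chil3 (0.986), Ngp (0.980) and Lcn2 (0.977), with S100a8 or Olfml2b next. Ltf was nearest to Ppp1r42 (0.980) and Itgb2l, and Cd177 to Itgb2l (0.968) and Ppp1r42. Pglyrp1 was nearest to Wfdc21 (0.981) and S100a8. Fcnb and Lyz2 had other neighbours: 1810037I17Rik (0.932) and Ppp1cb (0.927) for Fcnb, and Gm49339 (0.958) and Pirb (0.937) for Lyz2.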

How the data were processed

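UMI counts per gene and cell and the cluster of each cell were deposited by the authors; Cell Ranger 2.1.0 and mm10 are named in the submitters' processing notes. The authors also deposited antibody counts and natural log values; the log values equal the natural log of a cell's antibody share within 1e-08 for all 44528. These antibody values belong to a pooled library of male and female cells, a sample of its own beside the mRNA libraries. No other sample was used. The 9 genes, the lists and the rules were chosen with earlier results of these data known. UMIs were summed per library and cluster and tested in edgeR 4.0.16 (R 4.3.3) by the quasi-likelihood test with TMM scaling, filterByExpr, library as a covariate and Benjamini-Hochberg adjustment over all genes; an adjusted p under 0.05 was called. The SE printed with a log2 fold change is the size of that change divided by the square root of the test's F value. It is not a spread measured over the libraries. The granulocyte fit held 14 sums (10820 genes) and the monocytic fit 8 (10844 genes). Pairing by library comes from the design. With the library as a covariate, p-values measure only how far differences between clusters varied from library to library. That spread was pooled over the clusters of a fit and shared between genes. It comes from 2 libraries of unstated numbers of mice. The granulocyte fit left 6 residual degrees of freedom and the monocytic fit 3. The smallest p-values thus rest largely on the spread shared between genes and not on the 2 libraries alone. The test was also run on simulated counts, for Gran-2 against Gran-1 only. These were drawn with a common spread for all genes and no difference between libraries other than size. They lack the spread between libraries of the real data, so they are no support for the calls given here. Cells were thinned to 4000 UMIs; none was lost, as the lowest had 4373. Intervals are exact (95%) and cover counting error only; a count of 0 is given the limit of 3 counts. No doublet caller was run. Alternatives were DESeq2 1.42.0, other scalings, no filter, no block, thinning, other thresholds and leaving out libraries or shared barcodes. Named genes were the 9, Mpo, Elane, S100a8, Cebpe and Gfi1 as reference points, the near copies, the 2 most alike genes for each and the 4 most abundant of the other granule list. Sums and shares were made in Python 3.11.15 with scipy 1.17.1, pandas 2.3.3 and numpy 2.4.6, and plots with matplotlib 3.10.9.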

Additional observations from a re-analysis of the deposited data

How the results depend on the processing

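Of 81 fold changes of the 9 genes over 9 comparisons, 567 alternative values kept their call in 503 cases, lost the call in 51, gained one in 12 and turned in 1, the Fcnb value in Myelo-2 against Myelo-1 with no composition scaling (-0.11); the cause was not tested. In 13 cases a value called under neither setting changed sign. Pairing by library comes from the design, since sums of 1 library share that library; without the replicate block the genes called were 1489 in Gran-2 against Gran-1, 1894 in Myelo-1 against Gran-2, 374 in Myelo-3 against Myelo-2, 1577 in MDP against Multi-Lin, and of the 9 genes 4 in Gran-1 against Multi-Lin, 1 in MDP against Multi-Lin, 4 in cMoP against Multi-Lin, 5 in Mono against Multi-Lin were called. Cells thinned to 4000 UMIs, which leaves fewer UMIs, gave 3518 in Gran-1 against Multi-Lin, 1228 in Gran-2 against Gran-1, 1140 in Myelo-1 against Gran-2, 2090 in Myelo-2 against Myelo-1, 403 in Myelo-3 against Myelo-2, 841 in MDP against Multi-Lin, 1475 in cMoP against Multi-Lin, 2961 in Mono against Multi-Lin, with 5 in Gran-1 against Multi-Lin, 2 in Myelo-3 against Myelo-2 of the 9 genes. DESeq2 called 1389 in MDP against Multi-Lin, 3147 in Mono against Multi-Lin, with 4 in Gran-1 against Multi-Lin, 5 in Gran-2 against Gran-1, 1 in MDP against Multi-Lin of the 9 genes. With no composition scaling 3 in Gran-1 against Multi-Lin, 1 in MDP against Multi-Lin, 4 in cMoP against Multi-Lin of the 9 genes were called, with RLE scaling 5 in Gran-1 against Multi-Lin and without the filter on low counts 3 in Myelo-3 against Myelo-2. Leaving out each library gave 1 to 2 genes above background by Gran-1, and more than 5 times as the rule gave 0. Leaving out either library turned no called value among 162 fold changes. With totals that leave out granule genes 0 genes were highest in Myelo-1, and by the median over cells 1 was highest in Myelo-2 and 1 in Myelo-3. With a threshold at 5% of background cells the percentage of Gran-2 cells on was 15.0 for Camp, 8.71 for Ngp, 2.94 for Ltf, 4.96 for Lcn2, 13.1 for Chil3, 4.60 for Cd177, 4.40 for Lyz2. With counts that were not thinned it was 28.6 for Camp, 28.1 for Ngp, 9.30 for Ltf, 14.6 for Lcn2, 28.2 for Chil3, 3.99 for Cd177, 91.1 for Fcnb, 94.7 for Pglyrp1, 8.06 for Lyz2. Bins by the log share of Ly-6G gave a log2 of highest over lowest bin of 2.82 for Camp, 3.38 for Ngp, 4.45 for Ltf, 3.77 for Lcn2, 2.76 for Chil3, 3.79 for Cd177, -0.79 for Fcnb, 1.31 for Pglyrp1, 3.13 for Lyz2, and CD11b bins, chosen after the data had been seen, gave 5.97 for Camp, 5.97 for Ngp, 5.67 for Lcn2, 5.86 for Chil3, 4.18 for Fcnb, 2.97 for Pglyrp1, 5.13 for Lyz2; the cause was not tested. Counts in Myelo-4, with 31 female and 28 male cells, limit what can be said of that cluster.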
